A study of Saccharomyces cerevisiae W303 with 86 samples.

Results

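The chaperones that fold proteins in the mitochondrial matrix and the ATP-dependent proteases that clear them are described here across mutants of the budding yeast Saccharomyces cerevisiae. The genes were taken from a list of systematic names, and all 10 were found among the 7126 features of each deposited table. Coordinates are those of RefSeq for genome build R64, and in that annotation no other gene overlaps any of the 10.

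Proteins imported into mitochondria arrive unfolded and are pulled in and folded by a matrix Hsp70 and then by a chaperonin, a barrel that encloses its client. Proteins that fail to fold or assemble are degraded by ATP-dependent proteases of the AAA+ family, in the matrix or at either face of the inner membrane. Many mRNAs for imported mitochondrial proteins are bound by Puf3, an RNA-binding protein of the Pumilio family, and the Snf1 kinase adjusts mitochondrial gene expression to the carbon source.

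The chaperonin is formed by HSP60 (YLR259C, chromosome XII, 663284 to 665002), its barrel, and HSP10 (YOR020C, chromosome XV, 370524 to 370844), its lid. SSC1 (YJR045C, chromosome X, 519638 to 521602) encodes the main matrix Hsp70 and the import motor's force-generating subunit, and ECM10 (YEL030W, chromosome V, 94644 to 96578) its paralog. MDJ1 (YFL016C, chromosome VI, 104701 to 106236) encodes the J protein that stimulates the Hsp70 ATPase, and MGE1 (YOR232W, chromosome XV, 774573 to 775259) the nucleotide exchange factor that resets it. PIM1 (YBL022C, chromosome II, 177874 to 181275) encodes the Lon protease of the matrix. AFG3, also called YTA10 (YER017C, chromosome V, 189503 to 191788), and YTA12 (YMR089C, chromosome XIII, 445609 to 448086) encode the subunits of the m-AAA protease, which faces the matrix. YME1 (YPR024W, chromosome XVI, 610481 to 612724) encodes the i-AAA protease, which faces the intermembrane space.

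The series measured poly(A) RNA in 78 libraries, and ribosome footprints (the mRNA fragments that translating ribosomes protect) in 8 libraries, of strain W303-1A grown in glucose medium to mid-log phase. It asked how cells adapt when oxidative phosphorylation fails. There are 29 groups in 7 sets, and each group was set against a control of its own set. Per the labels the replicates are biological, with 3 libraries per mRNA group and 2 per footprint group, except for 6 wild-type libraries in the OXPHOS set.

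The OXPHOS set held deletions of cor1 (complex III), cox9 (complex IV) and atp7 (ATP synthase), rho0 cells, which have no mitochondrial DNA, and wild type. The PUF3 set held puf3, atp7, atp7 puf3, rho0 and puf3 rho0 cells and wild type. The Puf3-15A set held the allele puf3-15A, which the design states as blocking hyperphosphorylation of Puf3, in cells with and without mitochondrial DNA, together with rho0 cells and wild type. The SNF1 set held snf1 and wild-type cells, each untreated or grown with ethidium bromide (25 µg/ml, 48 h), a dye that removes mitochondrial DNA. The MIG1 set held snf1 mig1 and snf1 cells, all of them treated in that way. Mig1 is a repressor of genes that glucose shuts off. The INH1 set held rho0 cells with INH1, an inhibitor of the ATP synthase's ATPase activity, under the copper-responsive CUP1 promoter, with and without CuSO4 (10 mM, 12 h), rho0 cells and wild type. No cells without the construct were given copper, so an effect of copper and an effect of INH1 cannot be told apart. The footprint set held puf3, rho0 and puf3 rho0 cells and wild type.

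Libraries held about 8622304 to 71107868 reads for mRNA and 1149911 to 2983582 for footprints. Deleted genes and INH1 followed the labels, as did COX1 and OLI1, both encoded in mitochondrial DNA, except that OLI1 was at 0 RPKM in footprints of wild type, where COX1 was at 1.67 and 2.06 RPKM. Several groups stood apart in ways that the labels do not give. The summed level of 11 genes of mating type a and of haploid cells was 1453 to 3570 RPKM (reads scaled to gene length and library size) in most groups. It was 95.5 to 106 RPKM in treated and 73.5 to 99.7 RPKM in untreated snf1 cells of the SNF1 set, 58.4 to 82.8 RPKM in the MIG1 set, 72.3 to 85.8 RPKM in wild type of the INH1 set, 21.5 to 44.3 RPKM in footprints of wild type, and 720 to 1014 RPKM in wild type of the PUF3 set. The part of this difference in the comparisons against those groups was not tested, while in the rho0 comparisons of the OXPHOS and Puf3-15A sets every library had at least 1582 RPKM. The summed level of 4 genes of mating type alpha averaged 31.5 RPKM in wild type and 38.2 RPKM in rho0 cells of the INH1 set. In the SNF1 set it averaged 38.6 RPKM in untreated snf1 cells and 29.3 RPKM in untreated wild type.

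Single libraries stood apart too. Wild-type libraries 4 to 6 of the OXPHOS set had 17 cytosolic chaperone genes at a summed 5550 to 5635 RPKM, against 7117 to 7341 RPKM in libraries 1 to 3. In the PUF3 set, rho0 library 1 had these genes at 5589 RPKM and 8 general stress genes at 3231 RPKM, against 3327 to 3525 and 1148 to 1338 RPKM in rho0 libraries 2 and 3. Wild-type library 1 of that set had the stress genes at 311 RPKM, against 699 and 705 RPKM in the other wild-type libraries. Some member results are given with and without these libraries. The other member results and the counts over the other gene lists are given with all libraries, and their size can depend on them. Every fold change below is a log2 change with its standard error on the log2(RPKM + 1) scale after rescaling within the set. A gene is called changed at an adjusted p under 0.05 (limma, Benjamini-Hochberg over all features tested), and all 10 genes passed the filter on low values in every set. Shares of features called are those of the main fit with all libraries, and none is given for the alternative fits. Whether groups overlap is read from deposited RPKM and is no test, and the share of all features without overlap was not counted. In untreated snf1 cells against wild type, 9 of 10 genes did not overlap and 3 were called. RNA came from whole cultures, so a change in every cell and a change in a share of the cells cannot be told apart.

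The mRNAs of the chaperonin, SSC1 and MGE1 were more abundant than those of the proteases. In wild type of the OXPHOS set, SSC1 averaged 887 ± 111 RPKM (SD, n = 6), HSP10 758 ± 34.4 and HSP60 635 ± 57.7, and MGE1 followed at 303 ± 14.8. YTA12 averaged 105 ± 6.55, YME1 98.5 ± 7.19, MDJ1 93.2 ± 30.4, PIM1 85.3 ± 10.1 and AFG3 80.7 ± 4.70 RPKM, and each of these 5 overlapped the next in range. SSC1 overlapped HSP10 in range, whereas the lowest HSP10 library stood above every HSP60 library. ECM10 was the exception among the chaperones at 9.63 ± 0.203 RPKM, and since SSC1 and ECM10 are similar in sequence, reads could be shared between them.

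Over the 25 mRNA groups, every gene but ECM10 had its highest mean in the same group, rho0 cells with CUP1p-INH1 and copper, where HSP60 reached 3365 ± 19.3 RPKM, SSC1 2719 ± 17.5 and MDJ1 492 ± 5.34 RPKM (SD, n = 3). ECM10 had its highest mean, 18.5 ± 4.29 RPKM, in treated snf1 cells. The lowest means of HSP60 (615 ± 12.8), HSP10 (682 ± 10.6), SSC1 (705 ± 18.5), AFG3 (64.8 ± 3.14) and YTA12 (89.3 ± 4.02 RPKM) were all in puf3-15A cells. In 27 pairwise comparisons, some of which share libraries, HSP10 was called higher in 18 and lower in 3. HSP60 was called higher in 16 and lower in 3, while ECM10 was called in 2, both higher. The heat map of log2 changes shows the 10 genes side by side.

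**Figure D1:**
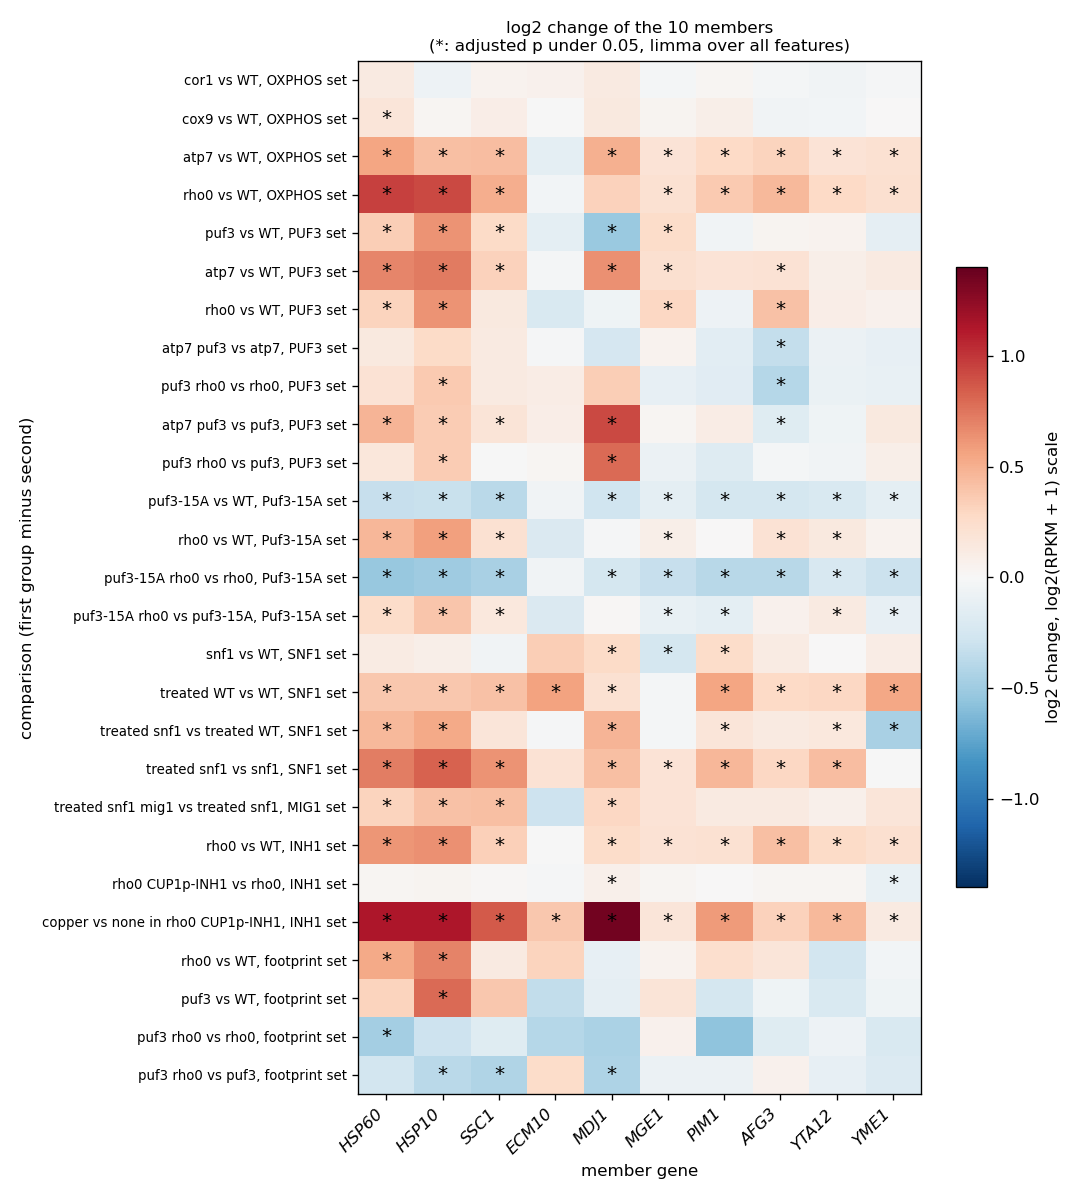
Log2 change (colour, log2(RPKM + 1) scale) of each gene (columns) in each comparison (rows, first group minus second), with an asterisk where the adjusted p was under 0.05 (limma). The copper row holds calls for all 10 genes, and the 2 comparisons of puf3-15A with its control hold 9 genes lower each.

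In the OXPHOS set, HSP60 and HSP10 had the largest changes of the 10 genes in cells without mitochondrial DNA. HSP60 had 1257, 1303 and 1298 RPKM in rho0 cells, against 577 to 702 RPKM (median 625) in 6 wild-type libraries. HSP10 had 1456, 1515 and 1561 RPKM in rho0 cells, against 720 to 817 RPKM (median 758) in wild type. All rho0 libraries stood above all wild-type libraries for both genes, and the log2 changes were 0.95 ± 0.05 (adjusted p = 9.1e-11) and 0.93 ± 0.05 (adjusted p = 5.6e-10). SSC1, at 1303 to 1335 RPKM in rho0 cells and 779 to 1001 RPKM in wild type, rose by less, with a log2 change of 0.51 ± 0.06 (adjusted p = 3.2e-06).

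The proteases rose in rho0 cells too, by smaller steps. AFG3 had 116, 119 and 114 RPKM in rho0 cells, against 75.8 to 85.9 RPKM (median 80.9) in wild type, a log2 change of 0.45 ± 0.04. PIM1 changed by 0.37 ± 0.06, YTA12 by 0.28 ± 0.04 and YME1 by 0.22 ± 0.05, and MGE1, the exchange factor, by 0.22 ± 0.03. In all, 8 of 10 genes were called higher (median log2 change 0.35), beside 25.1% of all 6757 features (median 0.00), and the groups did not overlap for these 8 genes. ECM10 was at 9.59 to 9.97 RPKM in rho0 cells and 9.27 to 9.85 RPKM in wild type.

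MDJ1, the J protein, depended on which wild-type libraries it was set against. MDJ1 had 114, 121 and 116 RPKM in rho0 cells, against 116 to 128 RPKM in wild-type libraries 1 to 3 and 63.5 to 67.4 RPKM in wild-type libraries 4 to 6. Its log2 change in rho0 cells was 0.32 ± 0.18 (adjusted p = 0.15) against all 6, -0.11 against libraries 1 to 3 alone and 0.73 (adjusted p = 4.5e-08) against libraries 4 to 6 alone. Between the 2 trios of wild type, libraries 4 to 6 minus 1 to 3, MDJ1 differed by -0.80, SSC1 by -0.26, PIM1 by -0.24 and HSP60 by -0.17 on the log2 scale, and the other 6 genes by -0.12 to 0.04.

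Loss of the ATP synthase subunit Atp7 raised the same 8 genes in the OXPHOS set. The difference between atp7 and rho0 cells was not tested. HSP60 had 1040, 978 and 970 RPKM in atp7 cells of the OXPHOS set, against 577 to 702 RPKM in wild type, a log2 change of 0.55 ± 0.05 (adjusted p = 2.4e-07). HSP10 changed by 0.42 ± 0.05, SSC1 by 0.43 ± 0.06, AFG3 by 0.31 ± 0.04, PIM1 by 0.28 ± 0.06, YME1 by 0.21 ± 0.05, MGE1 by 0.19 ± 0.03 and YTA12 by 0.19 ± 0.04, and no library of these 8 genes overlapped between atp7 cells and wild type. MDJ1 was called as well, at 0.49 ± 0.18 (adjusted p = 0.035), with 127 to 147 RPKM in atp7 cells, but the call was lost in 6 of 9 fits that left out 1 library, whichever atp7 library or library of wild type 4 to 6 was left out. Against wild-type libraries 1 to 3 alone the MDJ1 change was 0.10 (adjusted p = 0.19). These 9 calls stood beside 20.8% of all features called higher, with a median of 0.30 over the 10 genes and 0.00 over all features.

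Set against all 6 wild-type libraries, cells without Cor1 or Cox9, subunits of complexes III and IV, differed little. Of the 10 genes, limma called 0 in cor1 cells, where 1 had an unadjusted p under 0.05 and voom on recovered reads called 0, beside 3.51% of features called higher and 2.71% lower. HSP60 had 703, 686 and 677 RPKM in cor1 cells and 693, 734 and 710 RPKM in cox9 cells, against 577 to 702 RPKM in wild type, and the groups overlapped. In cox9 cells its change of 0.17 ± 0.05 was the only call (adjusted p = 0.039), beside 3.54% of features higher, and it was lost when any cox9 library or any of wild-type libraries 4 to 6 was left out (adjusted p 0.072 to 0.16). Against wild-type libraries 1 to 3 alone, HSP60 was at 0.09 (adjusted p = 0.15) in cox9 cells and the one call was MDJ1, lower. MDJ1 changed direction with the wild-type trio, at -0.28 and -0.27 in cor1 and cox9 cells against libraries 1 to 3 and 0.52 and 0.53 against libraries 4 to 6. Against libraries 4 to 6 alone, 4 of the 10 genes were called higher in cor1 cells and 4 in cox9 cells. No share of all features is given for these fits. All 4 comparisons of the OXPHOS set share their wild-type libraries.

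**Figure D2:**
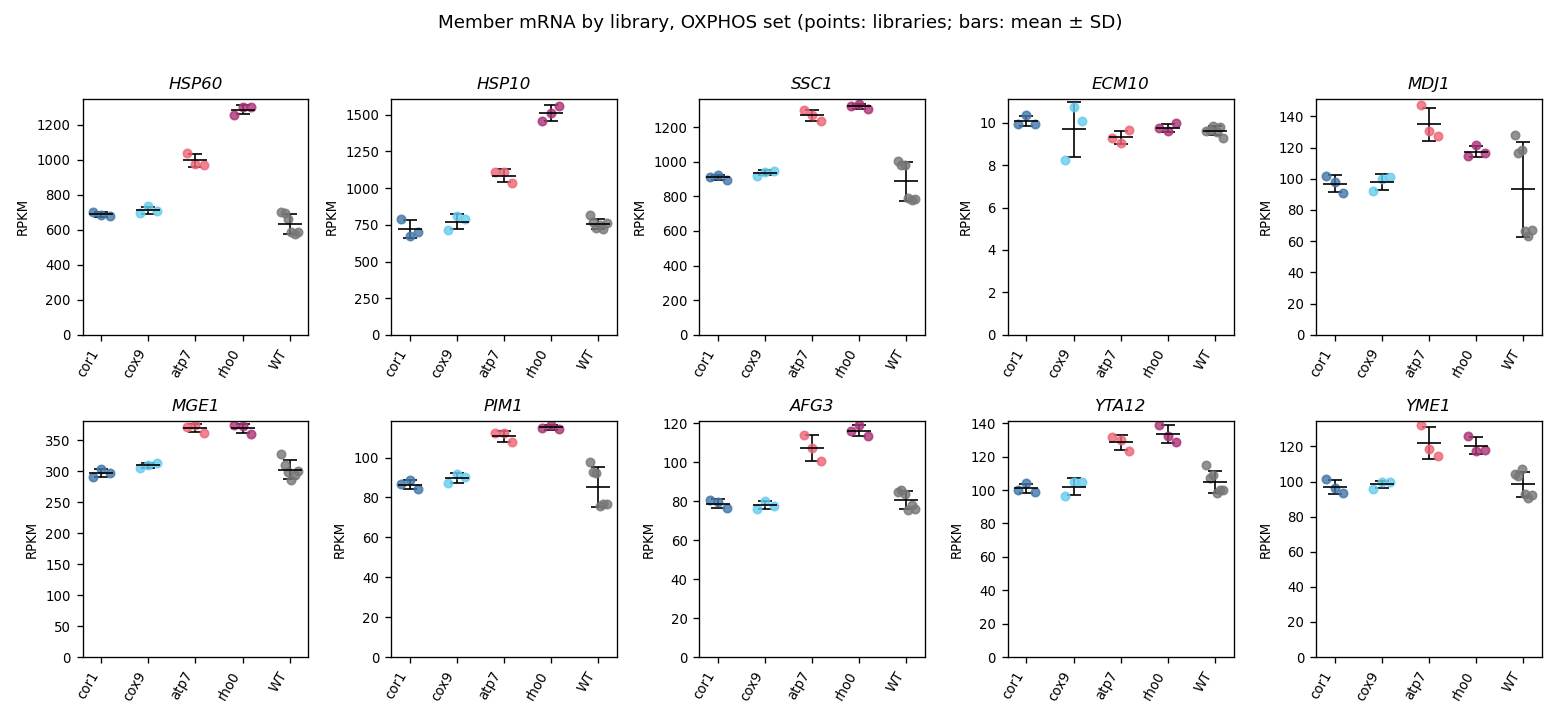
RPKM of the 10 genes in each library of the OXPHOS set, by group (3 libraries per mutant, 6 of wild type), with the group's mean ± SD as black bars. HSP60 and HSP10 are highest in rho0 cells, at 1257 to 1561 RPKM, and wild type of MDJ1 splits into 3 libraries at 116 to 128 RPKM and 3 at 63.5 to 67.4 RPKM.

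Most of the other mitochondrial folding and processing genes were higher in rho0 cells as well. Among 13 other mitochondrial chaperones and import motor parts, 10 were called higher and 1 lower in rho0 cells of the OXPHOS set (median 0.51). JAC1, a J protein of iron-sulfur cluster assembly, rose by 0.84 and PAM17 and PAM16, of the import motor, by 0.52 and 0.51, while MCX1, a ClpX homolog, fell by 0.18. Among 17 other mitochondrial proteases and their partners, 10 were called higher and 1 lower (median 0.35), with the processing peptidase subunits MAS1 and MAS2 up by 0.77 and 0.50, PHB2, a prohibitin that binds the m-AAA protease, by 0.81, and CYM1, a peptidase that degrades cleaved presequences, by 0.87. PRD1, an oligopeptidase, fell by 0.21. Of the 17 cytosolic chaperones 2 were higher and 9 lower (median -0.25), and 5 of 8 general stress genes were higher (median 0.81), with a summed 2591 to 2846 RPKM in rho0 cells and 325 to 610 RPKM in wild type. The part of the stress and cytosolic genes in the members' changes was not tested.

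Cells without mitochondrial DNA were measured in 4 further sets. In the INH1 set 9 of 10 genes were called higher in rho0 cells, beside 34.8% of all features. HSP60 had 1425, 1422 and 1426 RPKM in rho0 cells, against 860, 863 and 856 RPKM in wild type, and HSP10 1320, 1324 and 1378 RPKM in rho0 cells, against 774, 815 and 801 RPKM in wild type. Their log2 changes were 0.62 ± 0.01 and 0.64 ± 0.03, followed by AFG3 at 0.42 ± 0.02 and SSC1 at 0.33 ± 0.02. MDJ1 (0.26 ± 0.02), YTA12 (0.26 ± 0.03), YME1 (0.23 ± 0.03), PIM1 (0.21 ± 0.02) and MGE1 (0.20 ± 0.02) made up the rest, and ECM10 was at 10.2 to 11.2 RPKM in rho0 cells and 9.69 to 10.5 RPKM in wild type. The wild type of this set is one of those with low levels of the mating type a and haploid genes, as given above.

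In the Puf3-15A set, 6 of 10 genes were called higher in rho0 cells, beside 28.5% of all features. HSP10 had 1308, 1362 and 1273 RPKM in rho0 cells, against 864, 853 and 893 RPKM in wild type (0.58 ± 0.03), and HSP60 1114, 1088 and 1111 RPKM in rho0 cells, against 803, 760 and 803 RPKM in wild type (0.47 ± 0.03). SSC1 (0.22 ± 0.03), AFG3 (0.21 ± 0.04), YTA12 (0.13 ± 0.04) and MGE1 (0.09 ± 0.03) followed. MGE1 lost its call in 3 of 6 fits without 1 library, those without wild-type library 1 or rho0 library 1 or 2 (adjusted p up to 0.064). The median was 0.11 over the 10 genes and 0.01 over all features. PIM1 was at 101 to 106 RPKM in rho0 cells and 101 to 103 RPKM in wild type, a change of 0.00 ± 0.03, and MDJ1 at 119 to 124 RPKM in rho0 cells and 117 to 123 RPKM in wild type (-0.02 ± 0.04).

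In the PUF3 set, 4 of 10 genes were called higher in rho0 cells, beside 21.2% of all features. HSP10 had 1422, 1055 and 993 RPKM in rho0 cells, against 711, 756 and 766 RPKM in wild type (0.63 ± 0.08), AFG3 changed by 0.41 ± 0.04 and MGE1 by 0.29 ± 0.05. HSP60 was called at 0.31 ± 0.09, but its 1037, 805 and 733 RPKM in rho0 cells overlapped the 568, 775 and 748 RPKM of wild type. Without rho0 library 1 the HSP60 change was 0.19 (adjusted p = 0.053), without wild-type library 1 it was 0.22 (adjusted p = 0.061), and without both 0.11 (adjusted p = 0.14). Without both, in a fit added after seeing the data, 3 genes were called higher and 3 lower, with no share of all features given. Those lower were MDJ1 at -0.41, ECM10 at -0.35 and PIM1 at -0.26, and those higher HSP10 at 0.52, AFG3 at 0.40 and MGE1 at 0.31.

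Ethidium bromide on wild-type cells gave another order of genes. In the SNF1 set 9 of 10 were called higher in treated than in untreated wild type, beside 35% of all features, with a median of 0.38. PIM1 had 131, 130 and 115 RPKM in treated cells, against 87.0, 89.8 and 90.0 RPKM in untreated cells (0.56 ± 0.06), and YME1 133, 127 and 114 RPKM in treated cells, against 88.3, 90.2 and 88 RPKM in untreated cells (0.55 ± 0.07). ECM10 rose as well, to 15.9, 14.8 and 15.3 RPKM in treated cells, against 10.9, 10.5 and 10.3 RPKM in untreated cells (0.56 ± 0.17). The chaperonin and SSC1 followed, HSP60 with a log2 change of 0.37 ± 0.06, HSP10 with 0.38 ± 0.08 and SSC1 with 0.41 ± 0.07, and YTA12 (0.30 ± 0.06), AFG3 (0.28 ± 0.06) and MDJ1 (0.22 ± 0.06) were called too. MGE1 was at 345 to 353 RPKM in treated cells and 357 to 383 RPKM in untreated cells (-0.03 ± 0.06). HSP78, the matrix disaggregase of the Hsp100 family, changed by 2.13, and the 8 stress genes summed to 7088 to 8381 RPKM in treated cells and 614 to 703 RPKM in untreated cells. Whether treated wild type differed from rho0 strains in these genes was not tested, since they were measured in different sets.

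**Figure D3:**
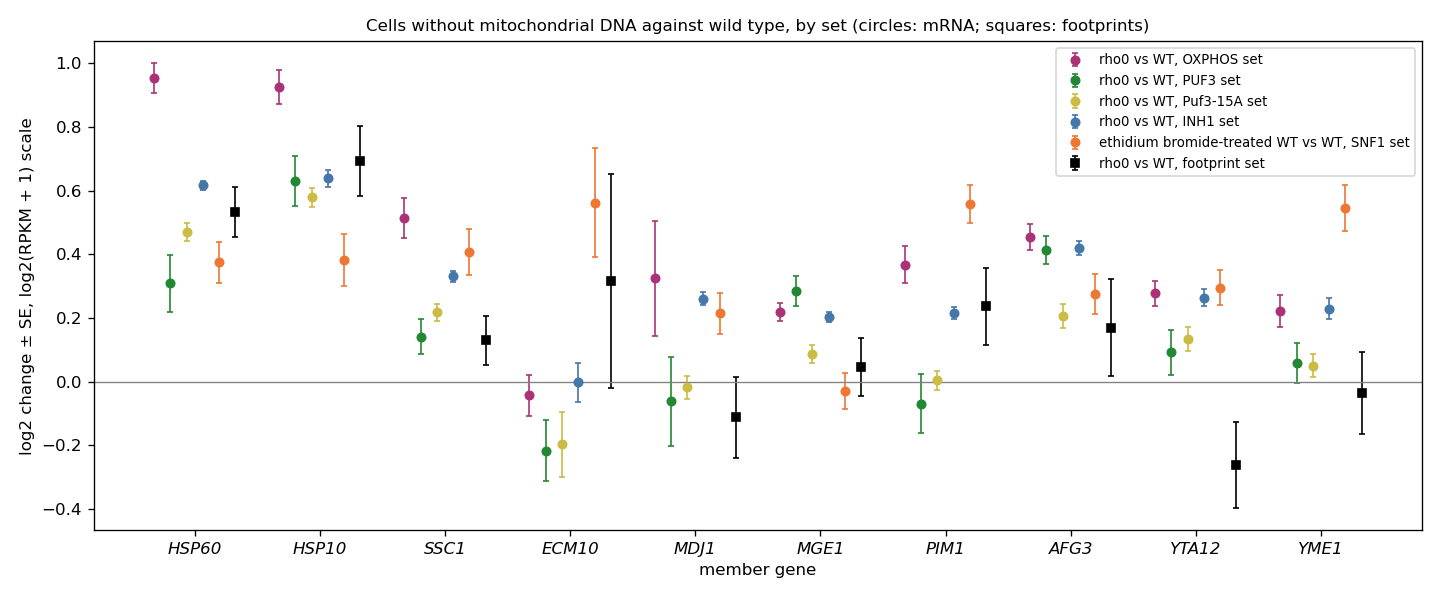
Log2 change with its standard error (y axis, log2(RPKM + 1) scale) of each gene (x axis) in cells without mitochondrial DNA against wild type of the same set, for 4 mRNA sets, ethidium bromide treatment and footprints. HSP10 is above 0 throughout, between 0.38 and 0.93, and PIM1 runs between -0.07 and 0.56.

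Deletion of PUF3 moved the members apart. In puf3 cells, HSP10 had 1116, 1118 and 1109 RPKM, against 711, 756 and 766 RPKM in wild type (0.63 ± 0.08, adjusted p = 6.2e-05). HSP60 changed by 0.34 ± 0.09, SSC1 by 0.27 ± 0.05 and MGE1 by 0.25 ± 0.05, whereas MDJ1 fell to 71.3, 61.5 and 63.6 RPKM in puf3 cells, against 74.3, 115 and 108 RPKM in wild type (-0.52 ± 0.14, adjusted p = 0.024). The proteases stayed within 0.13 of 0 and none was called, YME1 being furthest at -0.13 ± 0.06 (adjusted p = 0.17). These 4 calls higher and 1 lower stood beside 8.82% of features higher and 6.83% lower. The groups did not overlap for any of the 5 genes called. Without rescaling, 2 genes were called higher (HSP10 and MGE1) and MDJ1 lower.

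The puf3 calls varied in how they held. With only puf3 and wild-type libraries in the fit, HSP10 alone was called. MDJ1 lost its call without wild-type library 2 or 3 or puf3 library 2 or 3 (adjusted p 0.071 to 0.13), and HSP60 without puf3 library 2 or 3 (adjusted p 0.065 and 0.070). Without wild-type library 1, which stood apart, all 5 were called again, with MDJ1 at -0.66 and HSP60 at 0.26. All 11 mating type a and haploid genes were also called higher in puf3 cells of this set, and their part was not tested.

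In the fit of the whole set, the m-AAA subunit AFG3 was the one gene called lower without PUF3 on an atp7 or rho0 background. It had 74.5, 75.2 and 75.0 RPKM in atp7 puf3 cells, against 94.8, 96.3 and 98.1 RPKM in atp7 cells (-0.33 ± 0.04, adjusted p = 0.00021), beside 2.06% of features called lower. In puf3 rho0 cells it had 87.5, 79.5 and 78.5 RPKM, against 110, 99.5 and 104 RPKM in rho0 cells (-0.39 ± 0.04, adjusted p = 1.1e-05), beside 15.5% of features lower. In neither did the groups overlap, and without either defect AFG3 was at 74.8 to 80.9 RPKM in puf3 cells and 72.6 to 82.4 RPKM in wild type (0.04 ± 0.04). The test of the difference itself gave an interaction of -0.38 ± 0.06 with atp7 (adjusted p = 0.0012) and -0.44 ± 0.06 with rho0 (adjusted p = 9.7e-05), and both held in every fit that left out 1 library. Its m-AAA partner YTA12 was at 109 to 115 RPKM in atp7 puf3 cells and 121 to 123 RPKM in atp7 cells (-0.09 ± 0.07, adjusted p = 0.997). With only the 2 groups in the fit, 3 genes were called higher and 4 lower in atp7 puf3 than in atp7 cells, HSP10 at 0.27 and MDJ1 at -0.24 among them. No share of all features is given for that fit.

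HSP10 was higher in puf3 rho0 than in rho0 cells, at 1597, 1487 and 1475 RPKM in puf3 rho0 cells, against 1422, 1055 and 993 RPKM in rho0 cells (0.36 ± 0.08, adjusted p = 0.0028), beside 14.9% of features higher. Without rho0 library 1, 4 genes were called higher there, with MDJ1 at 0.55, HSP10 at 0.49, HSP60 at 0.31 and SSC1 at 0.18. The share of all features called in that fit is not given. MDJ1 was at 128, 123 and 114 RPKM in puf3 rho0 cells, against 129, 80.4 and 76.1 RPKM in rho0 cells. The interaction of puf3 and rho0 was 0.86 ± 0.20 for MDJ1 (adjusted p = 0.0036) and -0.37 ± 0.07 for MGE1 (adjusted p = 0.0006). In the fit of the whole set, MDJ1 mRNA was called lower in puf3 cells than in wild type. It was not called lower without PUF3 in atp7 or rho0 cells. The call in puf3 cells was lost in several fits, as given above. Beside these 3 interaction calls of 10 stood 36.9% of all features, and 13 of 17 cytosolic chaperones had a positive interaction (median 1.14). Without rho0 library 1 the MDJ1 interaction was 1.07, and without wild-type library 1 it was 1.00 and HSP10 was called as well (-0.29, adjusted p = 0.0498). For puf3 and atp7, 1 of 10 was called beside 7.44% of features, and without wild-type library 1 it was 3, with HSP10 at -0.39 and MGE1 at -0.24 besides AFG3.

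In puf3 cells that also lost Atp7 or mitochondrial DNA, MDJ1 had the largest change of the 10 genes. It had 130, 133 and 141 RPKM in atp7 puf3 cells, against 71.3, 61.5 and 63.6 RPKM in puf3 cells (0.92 ± 0.14), and 128, 123 and 114 RPKM in puf3 rho0 cells (0.80 ± 0.14). HSP60 (0.48 ± 0.09), HSP10 (0.36 ± 0.08) and SSC1 (0.18 ± 0.05) were called higher and AFG3 (-0.17 ± 0.04) lower in atp7 puf3 than in puf3 cells, beside 33.1% and 30.3% of features, and without rescaling 6 were called higher and 0 lower. In puf3 rho0 against puf3 cells 2 of 10 were called higher, MDJ1 and HSP10 (0.36 ± 0.08), beside 30.1% of features. In cells with PUF3, atp7 against wild type gave 6 calls higher beside 29.3% of features, HSP10 at 0.72 ± 0.08, HSP60 at 0.69 ± 0.09, MDJ1 at 0.64 ± 0.14, SSC1 at 0.32 ± 0.05, MGE1 at 0.23 ± 0.05 and AFG3 at 0.20 ± 0.04. HSP60 there had 1167, 1191 and 1188 RPKM in atp7 cells, against 568, 775 and 748 RPKM in wild type.

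The puf3-15A allele lowered nearly the whole group. In cells with mitochondrial DNA 9 of 10 genes were called lower, beside 7.47% of all features. SSC1 had 726, 691 and 699 RPKM in puf3-15A cells, against 962, 925 and 940 RPKM in wild type (-0.38 ± 0.03, adjusted p = 5.6e-06). HSP60 had 627, 617 and 602 RPKM in puf3-15A cells, against 803, 760 and 803 RPKM in wild type (-0.32 ± 0.03), and HSP10 670, 686 and 690 RPKM in puf3-15A cells, against 864, 853 and 893 RPKM in wild type (-0.31 ± 0.03). No library overlapped between the groups for any of the 9 genes. MDJ1 (-0.28 ± 0.04), PIM1 (-0.25 ± 0.03), AFG3 (-0.24 ± 0.04), YTA12 (-0.22 ± 0.04), MGE1 (-0.14 ± 0.03) and YME1 (-0.14 ± 0.04) followed, and the median was -0.25 over the 10 genes and 0.01 over all features. YME1 lost its call in 5 of 6 fits without 1 library, the exception being the fit without puf3-15A library 1, and its adjusted p was 0.031 with all libraries. ECM10 was at 10.4 to 10.6 RPKM in puf3-15A cells and 10.5 to 11.6 RPKM in wild type (-0.05 ± 0.10).

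In rho0 cells the same allele again lowered 9 of 10 genes, beside 8.74% of features. HSP60 had 762, 738 and 715 RPKM in puf3-15A rho0 cells, against 1114, 1088 and 1111 RPKM in rho0 cells (-0.54 ± 0.03, adjusted p = 1.3e-07), and HSP10 902, 902 and 898 RPKM, against 1308, 1362 and 1273 RPKM in rho0 cells (-0.50 ± 0.03). SSC1 changed by -0.45 ± 0.03, PIM1 by -0.39 ± 0.03, AFG3 by -0.39 ± 0.04, MGE1 by -0.33 ± 0.03, YME1 by -0.31 ± 0.04, MDJ1 by -0.25 ± 0.04 and YTA12 by -0.23 ± 0.04, and all 9 were called in every fit without 1 library. The test of the difference found 5 of 10 genes more reduced in rho0 cells, beside 18.8% of features with a called interaction, namely HSP60 (-0.22 ± 0.04), HSP10 (-0.19 ± 0.04), MGE1 (-0.19 ± 0.04), YME1 (-0.17 ± 0.05) and PIM1 (-0.14 ± 0.04). PIM1, at an adjusted p of 0.041, lost the call in 11 of 12 fits without 1 library, and YME1, at 0.044, in 9 of 12.

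Within puf3-15A cells, those without mitochondrial DNA still had more chaperonin mRNA. HSP10 had 902, 902 and 898 RPKM in puf3-15A rho0 cells, against 670, 686 and 690 RPKM in puf3-15A cells (0.39 ± 0.03), HSP60 changed by 0.25 ± 0.03, SSC1 by 0.15 ± 0.03 and YTA12 by 0.12 ± 0.04. In the same comparison PIM1 (-0.13 ± 0.03), YME1 (-0.12 ± 0.04) and MGE1 (-0.10 ± 0.03) were called lower. MGE1 lost this call without puf3-15A rho0 library 1 (adjusted p = 0.055), and YME1 without puf3-15A library 1 or puf3-15A rho0 library 3 (adjusted p = 0.072 and 0.057). The 4 calls higher and 3 lower stood beside 32.3% and 33.2% of features. Of the lists, 8 of 13 other chaperones and 7 of 17 other proteases were called lower in puf3-15A cells with mitochondrial DNA, and 6 of 13 and 10 of 17 in rho0 cells, with CYM1 at -0.45 and -0.69 and PAM16 at -0.26 and -0.60. Cytosolic chaperones were lower for 6 of 17 in the first comparison (median -0.09), and for 0 of 17 in rho0 cells, where 2 were higher. The 2 comparisons with PUF3 deleted and with puf3-15A were made in different sets, and their difference was not tested.

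**Figure D4:**
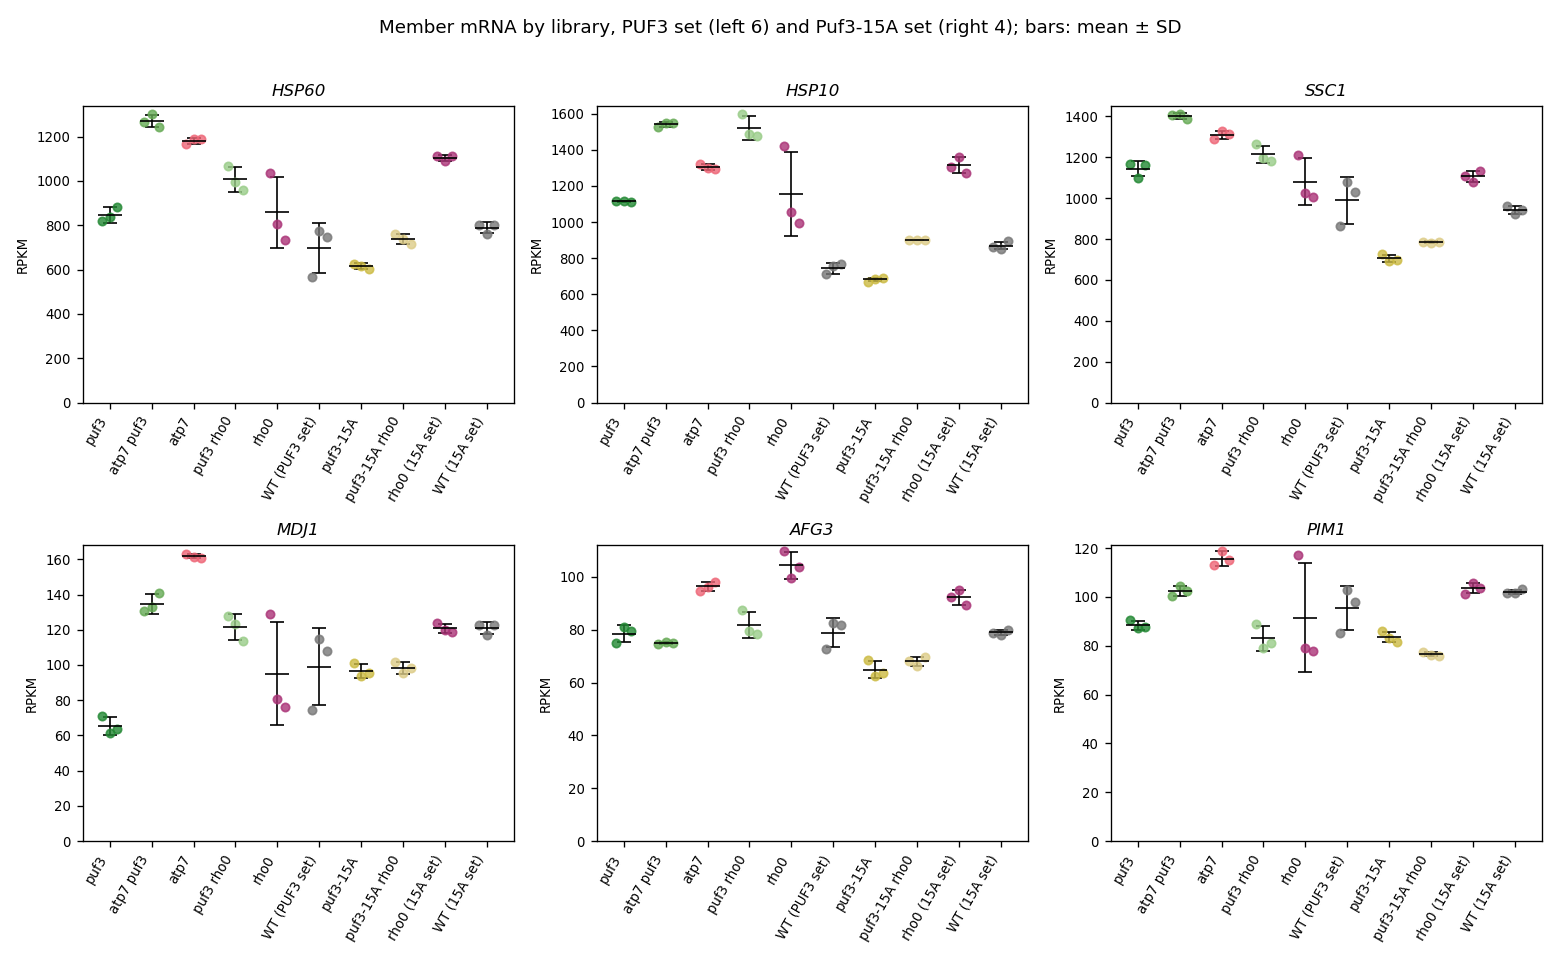
RPKM per library (points) with mean ± SD (bars, 3 libraries per group) of 6 genes in the PUF3 set (6 groups at the left of each panel) and the Puf3-15A set (4 groups at the right). In the Puf3-15A set every puf3-15A library lies below its control for the 6 genes, and in the PUF3 set AFG3 is lower in atp7 puf3 (74.5 to 75.2 RPKM) than in atp7 cells (94.8 to 98.1 RPKM).

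Deletion of SNF1 in untreated cells gave calls at about the rate of all features. Of 10 genes, MDJ1 was called higher (0.27 ± 0.06), with 159, 145 and 137 RPKM in snf1 cells, against 110, 107 and 115 RPKM in wild type, and PIM1 too (0.26 ± 0.06), beside 13% of features. MGE1 was called lower (-0.24 ± 0.06), with 352, 350 and 336 RPKM in snf1 cells, against 378, 357 and 383 RPKM in wild type, beside 16.1% of features. Rescaling matters here, since deposited values were divided by 0.986 to 1.12 in snf1 cells and 0.945 to 0.967 in wild type. Without rescaling, 5 genes were called higher and 0 lower, and MGE1 was at -0.11 (adjusted p = 0.093). All 11 mating type a and haploid genes were lower in this comparison (median -4.36). The 8 stress genes summed to 1168, 1887 and 687 RPKM in snf1 cells, against 614 to 703 RPKM in wild type. The part of either was not tested, and the calls of MDJ1, PIM1 and MGE1 held in every fit without 1 library.

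After ethidium bromide, the chaperonin mRNAs were higher in snf1 cells than in wild type. HSP10 had 1798, 1598 and 2078 RPKM in treated snf1 cells, against 1021, 1020 and 1096 RPKM in treated wild type (0.53 ± 0.08), and HSP60 1392, 1361 and 1564 RPKM in treated snf1 cells, against 865, 886 and 867 RPKM in treated wild type (0.45 ± 0.06). MDJ1 changed by 0.48 ± 0.06, PIM1 by 0.16 ± 0.06 and YTA12 by 0.14 ± 0.06, and YME1 went the other way at -0.45 ± 0.07 (adjusted p = 0.00016), with 121, 108 and 98.9 RPKM in treated snf1 cells, against 133, 127 and 114 RPKM in treated wild type. The 5 calls higher and 1 lower stood beside 29.4% and 31.6% of features. PIM1 and YTA12 lost their calls without treated wild-type library 3 or treated snf1 library 2 or 3 (adjusted p 0.096 to 0.18). Without rescaling, 8 genes were called higher and YME1 was not called, at -0.18 (adjusted p = 0.082).

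The response to treatment itself differed between snf1 and wild-type cells for 4 of 10 genes, beside 46.2% of features. HSP10 (interaction 0.44 ± 0.12), HSP60 (0.34 ± 0.09) and MGE1 (0.22 ± 0.08) responded more in snf1 cells, and YME1 (-0.56 ± 0.10) less. Without rescaling, 6 interactions were positive and 1 negative. In snf1 cells treated minus untreated, 8 of 10 were called higher beside 25.7% of features, HSP10 at 0.82 ± 0.08, HSP60 at 0.71 ± 0.06, SSC1 at 0.62 ± 0.07, PIM1 at 0.46 ± 0.06, YTA12 at 0.44 ± 0.06, MDJ1 at 0.42 ± 0.06, AFG3 at 0.29 ± 0.06 and MGE1 at 0.19 ± 0.06. YME1, by contrast, changed by -0.01 ± 0.07 there. The MGE1 interaction was lost in 7 of 12 fits without 1 library (adjusted p up to 0.086). General stress genes moved the other way from the chaperonin, with 7 of 8 lower in treated snf1 cells than in treated wild type.

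In the MIG1 set, 4 chaperone genes were called higher in treated snf1 mig1 than in treated snf1 cells. SSC1 had 1340, 1330 and 1376 RPKM in treated snf1 mig1 cells, against 1029, 1026 and 1126 RPKM in treated snf1 cells (0.42 ± 0.06, adjusted p = 0.0021), and MDJ1 165, 164 and 175 RPKM, against 134, 140 and 160 RPKM in treated snf1 cells (0.29 ± 0.06). HSP10 (0.41 ± 0.10) and HSP60 (0.31 ± 0.09) were called too, beside 15.8% of features, but their groups overlapped, since treated snf1 library 3 had 1166 RPKM of HSP60 and the lowest treated snf1 mig1 library 1082 RPKM. HSP60 lost its call in 5 of 6 fits without 1 library and HSP10 in 4 of 6 (adjusted p up to 0.12 and 0.080), and both held without treated snf1 library 3. Without rescaling SSC1 was the one gene called higher, and ECM10 was called lower (-0.35). In the same comparison 14 of 17 cytosolic chaperones were higher (median 0.49), summed at 8341 to 8677 RPKM in treated snf1 mig1 cells and 5611 to 6165 RPKM in treated snf1 cells. CUP1-1, a metallothionein gene at a repeated locus, averaged 10967 RPKM in treated snf1 mig1 cells and 7110 RPKM in treated snf1 cells of this set, against at most 149 RPKM in the group means of the other sets, and what sets the MIG1 libraries apart in this was not tested.

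Copper on rho0 cells with CUP1p-INH1 gave the largest changes seen for HSP60, HSP10, SSC1, MDJ1, PIM1 and YTA12 in any pairwise comparison. All 10 were called higher, beside 34.8% of features, with a median of 0.53. MDJ1 had 489, 498 and 489 RPKM with copper, against 183, 184 and 183 RPKM without (1.35 ± 0.02). HSP60 had 3387, 3356 and 3352 RPKM with copper, against 1463, 1448 and 1457 RPKM without (1.14 ± 0.01), and HSP10 3177, 3179 and 3196 RPKM with copper, against 1367, 1416 and 1350 RPKM without (1.14 ± 0.03). SSC1, at 2699 to 2730 RPKM with copper and 1407 to 1449 RPKM without, changed by 0.85 ± 0.02.

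Among the proteases, PIM1 changed by 0.60 ± 0.02, YTA12 by 0.46 ± 0.03, AFG3 by 0.33 ± 0.02 and YME1 by 0.13 ± 0.03, and MGE1 by 0.17 ± 0.02. ECM10, at 14.9, 14.4 and 15.5 RPKM with copper and 11.2, 10.7 and 10.4 RPKM without, was called here (0.38 ± 0.06, adjusted p = 0.00012). No gene overlapped between the groups, and all 10 held in every fit without 1 library. Around them, 15 of 17 cytosolic chaperones rose (median 0.89), summed at 13081 to 13352 RPKM with copper and 7172 to 7214 RPKM without, and all 8 stress genes rose, summed at 14371 to 14996 RPKM with copper and 3853 to 3950 RPKM without. Other mitochondrial chaperones were higher for 9 of 13, HSP78 at 1.52 and JAC1 at 0.79, with MDJ2, an inner membrane J protein, at -0.85, and other proteases for 16 of 17, PHB1 at 0.77 and PHB2 at 0.64. INH1 itself was at 1931 ± 22.2 RPKM with copper and 295 ± 7.75 RPKM without (SD, n = 3).

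The construct without copper did little to these genes, although INH1 was at 295 ± 7.75 RPKM in rho0 CUP1p-INH1 cells and 77.6 ± 2.17 RPKM in rho0 cells. MDJ1 was called higher (0.07 ± 0.02, adjusted p = 0.028) and YME1 lower (-0.11 ± 0.03, adjusted p = 0.041), beside 9.76% and 7.9% of features, and each lost its call in 5 of 6 fits without 1 library. HSP60 was at 1448 to 1463 RPKM in rho0 CUP1p-INH1 cells and 1422 to 1426 RPKM in rho0 cells (0.03 ± 0.01, adjusted p = 0.23).

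**Figure D5:**
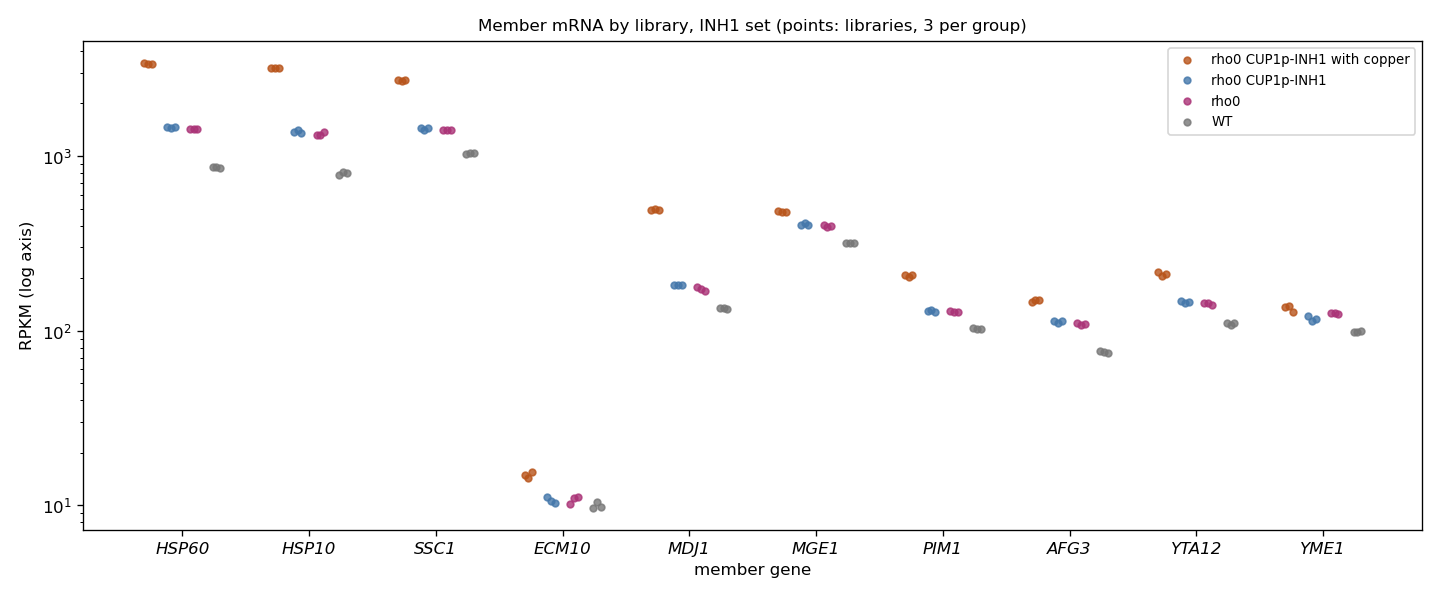
RPKM (log axis) of the 10 genes in each library of the INH1 set, with 3 libraries per group as points. With copper HSP60 lies at 3352 to 3387 RPKM, against 1448 to 1463 RPKM without, and MDJ1 at 489 to 498 RPKM, against 183 to 184 RPKM without.

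Footprints followed the mRNA for the chaperonin in rho0 cells. HSP60 had 1301 and 1514 RPKM of footprints in rho0 cells, against 881 and 901 RPKM in wild type (0.53 ± 0.08, adjusted p = 0.0038). HSP10 had 1625 and 1848 RPKM in rho0 cells, against 931 and 1040 RPKM in wild type (0.69 ± 0.11, adjusted p = 0.005). These were the 2 calls of 10, beside 12.6% of features, and both held in every fit without 1 library. SSC1 had 1369 and 1472 RPKM in rho0 cells, against 1163 and 1221 RPKM in wild type, and was not called (0.13 ± 0.08, adjusted p = 0.26). Depth was lower than for mRNA, with 93 to 8765 reads per library for genes other than ECM10 and 4 to 10 for ECM10, and each group had 2 libraries.

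Without PUF3, HSP10 footprints were higher in cells with mitochondrial DNA, at 1809 and 1616 RPKM in puf3 cells, against 931 and 1040 RPKM in wild type (0.79 ± 0.11, adjusted p = 0.02), beside 0.992% of features. The call was lost whichever of the 4 libraries was left out (adjusted p 0.068 to 0.17). All 11 mating type a and haploid genes were called higher in the same comparison, and their part was not tested. In rho0 cells HSP60 footprints were lower without PUF3, at 1131 and 1124 RPKM in puf3 rho0 cells, against 1301 and 1514 RPKM in rho0 cells (-0.48 ± 0.08, adjusted p = 0.027), beside 3.13% of features, and this call too was lost without any one of its 4 libraries (adjusted p 0.056 to 0.20). The interaction of puf3 and rho0 in footprints was -1.07 ± 0.16 for HSP10 and -0.79 ± 0.11 for HSP60 (both adjusted p = 0.021), 2 of 10 genes beside 2.55% of features with a called interaction. HSP10 kept no call without any 1 of the 8 libraries, and HSP60 kept it only without either rho0 library. In puf3 rho0 against puf3 cells SSC1 (-0.42 ± 0.08), MDJ1 (-0.43 ± 0.13) and HSP10 (-0.38 ± 0.11) were called lower, beside 15.5% of features, and none of them was called without rescaling. HSP10 and MDJ1 lost the call whichever of the 4 libraries was left out, and SSC1 without puf3 library 1 or puf3 rho0 library 2.

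Footprints per mRNA were higher for the chaperonin, SSC1 and MGE1 than for the 4 proteases. In wild type, the ratio of mean footprint to mean mRNA RPKM was 1.32 for HSP10, 1.28 for HSP60, 1.20 for SSC1, 1.16 for MGE1 and 0.963 for MDJ1. It was 0.627 for PIM1 and 0.592 for YME1, close to the median of 0.623 over 5776 genes, and 0.385 for AFG3 and 0.374 for YTA12, the m-AAA subunits. ECM10 had the lowest ratio, 0.149, from 4 to 10 footprint reads per library. The chaperonin, SSC1 and MGE1 stood above all proteases in each of the 4 genotypes, with HSP60 at 1.12 in puf3 rho0, 1.64 in rho0, 1.31 in puf3 and 1.28 in wild-type cells, and YTA12 at 0.348, 0.317, 0.321 and 0.374 in the same genotypes. MDJ1 did so in 3 of them, and in puf3 rho0 cells it was at 0.653, against 0.697 for PIM1. The ratios compare values scaled separately in the 2 assays, so only their order within a genotype can be read.

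Translational efficiency, the footprint change minus the mRNA change of the PUF3 set in 1 model, was called for no member in rho0 or in puf3 cells against wild type. The limma fit found 0 of 10 in each, with 2 and 0 at an unadjusted p under 0.05, beside 3.78% and 0.431% of features called higher and 3.92% and 0.16% lower. The 2 wild types differ, with the mating type a and haploid genes at a summed 21.5 to 44.3 RPKM in footprints and 720 to 1014 RPKM in mRNA. All 11 of these genes were called higher in both efficiency comparisons (medians 2.90 and 3.26). The part of this in the members' values was not tested. In puf3 rho0 against rho0 cells the efficiency of HSP60 (-0.68 ± 0.15, adjusted p = 0.017) and HSP10 (-0.65 ± 0.15, adjusted p = 0.02) was lower, 2 of 10 beside 4.98% of features. Both lost the call without puf3 rho0 footprint library 2 and without rescaling, and HSP10 also without rho0 mRNA library 2. Without rho0 mRNA library 1, the one that stood apart, 5 genes were called lower, with MDJ1 at -0.99, HSP60 at -0.79, HSP10 at -0.77, PIM1 at -0.56 and SSC1 at -0.35. The share of all features called without that library is not given. Cytosolic chaperones moved the same way, 12 of 17 being lower (median -1.15), and their part was not tested.

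Across 23 mRNA groups, each set centred on its own mean, the chaperonin and SSC1 had the most alike patterns. HSP60 correlated with HSP10 at r = 0.97 and with SSC1 at r = 0.97, SSC1 with YTA12 at r = 0.94, and PIM1 with YTA12 and AFG3 with YTA12 at r = 0.90 and 0.89. ECM10 was the least alike, with r between 0.06 (MGE1) and 0.71 (PIM1). Groups of a set share control libraries and scaling, so these values describe the groups and carry no test. Outside the members, among 5817 nuclear genes, the pattern of HSP60 was most like those of PET100 (r = 0.97), TOM6 (0.95) and CMC2 (0.95). For SSC1 these were MRPS12, PET100 and COX17 (0.93 each), for MGE1 TOM22, TOM20 and RDL2 (0.93, 0.89 and 0.88), and for YTA12 PHB1, MSS51 and XDJ1 (0.96, 0.95 and 0.95).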

How the data were processed

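The unit of all values, RPKM, was computed by the authors, who deposited 1 table per library. According to the submitters' processing notes, CASAVA 1.9 came into use together with STAR 2.6.1a, featureCounts and edgeR 3.28.1 on build R64. No source used here gives filters, gene lengths, strand or the handling of multi-mapping reads. At least 95.1% of nonzero values per library were whole reads within 0.05, which gave the read numbers printed. Libraries of a set were scaled to each other by a trimmed mean of log ratios (30% of ratios and 5% of levels trimmed). Features had to reach 1 RPKM in at least n libraries, n being the size of the set's smallest group. A mean per group was fitted with limma 3.58.1 (R 4.3.3, variance trend) to log2(RPKM + 1), for 35 comparisons, 5 of them interactions and 3 of efficiency. RPKM levels are printed as deposited, before rescaling. Summaries and plots used Python 3.11.15, pandas 2.3.3, numpy 2.4.6 and matplotlib 3.10.9. Some of these comparisons, an interaction and an efficiency comparison among them, were run on simulated data, and the alternatives were not. The simulated noise was independent between libraries, so libraries that stand apart were not simulated.

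The members and lists were chosen with earlier results of these data known. All called members are named, and of each list some of the called genes with the smallest adjusted p and those against the majority. Alternatives were other scaling, filter and pseudocount, only the groups compared, the replicate number as a block, single libraries left out, the wild-type trios, and voom on recovered reads. Residuals of libraries with the same replicate number correlated above 0.1 in all 3 pairs only for puf3 rho0 against rho0 mRNA (r 0.23 to 0.28), where the block changed no count of calls. Elsewhere the libraries share only a number. The MIG1 set, the most deeply sequenced, was not run with voom.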

Additional observations from a re-analysis of the deposited data

Results flagged for a closer look

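In 15 cases the effect of a change on a member differed between 2 backgrounds by the test of the interaction (limma, log2 scale). In mRNA, interactions were called for 7.44% of all features with puf3 and atp7 and 36.9% with puf3 and rho0. The share was 18.8% for puf3-15A and rho0, 46.2% for snf1 and treatment, and 2.55% for puf3 and rho0 in footprints. Several of the 15 calls were lost when 1 library was left out, as given above. For AFG3, the effect of puf3 differed by -0.38 between atp7 and ATP7 cells, and by -0.44 between rho0 cells and cells with mitochondrial DNA. Between rho0 cells and cells with mitochondrial DNA, the effect of puf3 on MDJ1 differed by 0.86 and that on MGE1 by -0.37. The effect of puf3-15A in rho0 cells, less that in cells with mitochondrial DNA, was -0.22 for HSP60, -0.19 for HSP10, -0.19 for MGE1, -0.14 for PIM1 and -0.17 for YME1. The effect of snf1 after ethidium bromide, less that in untreated cells, was 0.34 for HSP60, 0.44 for HSP10, 0.22 for MGE1 and -0.56 for YME1. In footprints the effect of puf3 in rho0 cells, less that in cells with mitochondrial DNA, was -0.79 for HSP60 and -1.07 for HSP10. No member had a library that stood apart by Dixon's test in the 6 wild-type libraries of the OXPHOS set, the one group large enough, although these split into 2 trios for MDJ1.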

How the results depend on the processing

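Some of the member counts in 35 comparisons were within 1.5 times their value under every alternative. They were those for the mRNA of atp7 and rho0 cells against wild type and for puf3-15A against its control. Those for ethidium bromide against no treatment and for copper were so too. These counts add both directions. For rho0 cells of the PUF3 set, 4 calls higher and 0 lower became 3 higher and 3 lower without wild-type library 1 and rho0 library 1. Counts that moved beyond 1.5 times follow, with some that only reached 1.5 times among them. The cause was not tested unless fewer samples show it. Without rescaling, which shifts the median of all features by up to 0.26, members called were 0 for cox9, 3 for puf3, 5 for snf1, 7 for the interaction of snf1 and treatment, and 2 for snf1 mig1. In footprints they were then 2 for puf3, 0 for puf3 rho0 against rho0 and 0 against puf3, and in efficiency 0 for puf3 rho0. MGE1 turned to 0.25 in treated snf1 against treated wild type. With median-ratio factors 3 interactions of puf3-15A and rho0 were called, and with a pseudocount of 5, 2 footprint changes for puf3 rho0 against rho0. With only the groups compared, which leaves fewer samples to estimate the spread, calls were 0 for cox9, 1 for puf3, 7 for atp7 puf3 against atp7, 1 for puf3 rho0 against rho0 and 4 against puf3, 2 for the interaction of puf3 and atp7, and 1 for CUP1p-INH1. In footprints they were then 0 for puf3 and 0 for puf3 rho0 against rho0, and in efficiency 1. With voom, calls were 2 for the interaction of puf3 and atp7, and in footprints 3 for puf3 and 3 for puf3 rho0 against rho0. Against wild-type libraries 1 to 3 alone 1 member was called in cor1 cells, and against libraries 4 to 6 alone 4 in cor1 and 4 in cox9 cells. MDJ1 turned to -0.28 in cor1 and -0.27 in cox9 cells against libraries 1 to 3.

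With the replicate number as a block, 1 member was called in cor1 and 1 in cox9 cells, MDJ1 in each and not HSP60, 2 for the interaction of puf3 and atp7, 1 for CUP1p-INH1, and 1 footprint change for puf3 rho0 against puf3. MDJ1 turned to -0.28 in cor1 and -0.27 in cox9 cells, since wild-type libraries 4 to 6 share no number with the mutants. Without 1 library, counts ran from 0 to 1 for cox9, 3 to 5 for puf3, 2 to 5 for puf3 rho0 against rho0, 1 to 3 for the interaction of puf3 and atp7, 3 to 4 for that of puf3-15A and rho0, 4 to 8 for treated snf1 against treated wild type, 3 to 6 for the interaction of snf1 and treatment, 2 to 5 for snf1 mig1, and 0 to 1 for CUP1p-INH1. In footprints they ran from 2 to 3 for rho0, 0 to 0 for puf3, 0 to 0 for puf3 rho0 against rho0 and 0 to 1 against puf3, and 0 to 1 for the interaction. In efficiency they ran from 0 to 1 for rho0 and 0 to 5 for puf3 rho0. Depth limits the footprints of ECM10 and of the m-AAA subunits most.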
